A study of Mus musculus with 96 samples.

Results

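The 10 genes described here encode transcription factors that drive keratinocyte differentiation: Klf3, Klf4, Klf5, Grhl1, Grhl2, Grhl3, Ovol1, Elf3, Ehf and Zfp750. The rule used gene symbols only, and all 10 were found, each once, among the 55487 genes of the deposited count table. Their transcripts were followed in 96 single cells, both daughters of each of 48 dividing mouse horizontal basal cells (HBCs) in culture, the reserve stem cells of the olfactory epithelium. The cultures were started from wild type mice, 6-8 weeks old, whose epithelium had been injured with methimazole 2 days earlier. The dish coating was changed from Tropoelastin to Fibronectin so that the cells attached and divided, and daughters were picked by hand with a record of who was whose sister. RNA was sequenced by G&T-seq, which captures polyadenylated RNA from 1 lysed cell on oligo-dT beads, with ERCC spike-in RNA added to each lysate. All 96 cells form 1 group under 1 condition, and the labels do not say which mouse or dish a cell came from. Values are therefore described over cells and pairs, without tests between groups and without p-values.

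Stratified epithelia are renewed by basal cells that divide on the basement membrane, leave it, and build a cornified surface. Klf4 and Klf5 are zinc-finger factors of epidermal barrier formation and of basal proliferation, and Klf3 is a repressor of the same family. The grainyhead-like factors Grhl1, Grhl2 and Grhl3 act on genes of desmosomes, epithelial junctions and the cornified barrier. Ovol1 is a zinc-finger repressor that helps cells to leave the cell cycle, Elf3 and Ehf are epithelial ETS factors, and Zfp750 is a target of p63 that acts late in epidermal differentiation. HBCs of the olfactory epithelium are not keratinocytes, but they share p63 and basal keratins with them.

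The cells carried between 29454150 and 44849003 counts on genes. ERCC transcripts took 1.06% to 5.75% of the counts. Of coverage over the ERCC transcripts, 1 deposited count stood for a median of 75 bases, so that single digits of counts are little sequence, and detection was also read at 10 counts. All 6 HBC markers checked, among them Trp63, Krt5 and Krt14, had 10 or more counts in at least 48 cells, whereas no more than 13 cells reached 10 counts for any of the 6 olfactory neuron markers. Some markers of other cell types were common. Aqp5 of Bowman glands and Sox2 of sustentacular cells were found in 96 cells, and Cd68 of immune cells in 57. Each was the only marker of its type in at least 48 cells. Sox2 is also among the basal genes scored below, so it does not set sustentacular cells apart from HBCs here. By a prefix in the names of the per-cell tables the cells fell into 12 sets of 8, each with 4 whole pairs, and whether a set was handled together is not stated. Levels are given as TPM, which is scaled for transcript length and lets genes be ranked. Sisters were compared on counts scaled to the ERCC spike-ins, and correlations were taken on CPM, counts scaled to the library total.

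Promoter sequence was listed by RefSeq (GRCm38.p6) for 5 of the 10 genes, Klf3, Klf4, Grhl1, Grhl3 and Elf3. The 250 bases before the start site are printed for 3 of them to set a gene found in every cell (Klf4) beside a gene found in few cells with a promoter of like composition (Grhl1) and one of lower CpG content (Grhl3). Capitals mark the KLF/SP box GGGCGGG, read on both strands.
Klf4, chr4:55532476-55532725, minus strand: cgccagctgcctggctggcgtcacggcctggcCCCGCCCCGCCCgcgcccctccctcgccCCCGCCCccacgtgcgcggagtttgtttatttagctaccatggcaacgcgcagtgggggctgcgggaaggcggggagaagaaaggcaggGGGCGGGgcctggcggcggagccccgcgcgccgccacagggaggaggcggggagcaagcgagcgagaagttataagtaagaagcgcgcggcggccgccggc
Grhl1, chr12:24572037-24572286, plus strand: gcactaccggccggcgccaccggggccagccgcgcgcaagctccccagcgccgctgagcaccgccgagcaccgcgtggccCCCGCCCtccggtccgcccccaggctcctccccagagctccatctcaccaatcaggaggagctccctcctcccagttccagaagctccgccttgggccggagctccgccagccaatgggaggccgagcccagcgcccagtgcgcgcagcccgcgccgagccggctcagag
Grhl3, chr4:135573633-135573882, minus strand: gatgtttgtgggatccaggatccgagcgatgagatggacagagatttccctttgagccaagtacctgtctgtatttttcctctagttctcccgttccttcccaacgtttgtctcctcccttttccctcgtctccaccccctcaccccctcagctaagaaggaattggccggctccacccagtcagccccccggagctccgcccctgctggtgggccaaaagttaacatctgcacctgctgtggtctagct
The Klf4 stretch held 32 CpG dinucleotides and 4 boxes, of which the first pair overlap, the Grhl1 stretch 27 CpG and 1 box, and the Grhl3 stretch 8 CpG and none. Klf3 had 23 CpG and 4 boxes, and Elf3 8 CpG and none. The median over 32851 mouse promoters was 6 CpG, and 23.4% of them held at least 1 box. The grainyhead site AACCGGTT (0.116% of promoters), the AP-1 site TGACTCA (4.46%), the ETS site CCGGAAG (6.91%) and the TATA box TATAAA (12.4%), each read on both strands, were in none of the 5 stretches. CpG content did not order the genes by detection: Grhl1, with 27 CpG, was found in fewer cells than Elf3, with 8.

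The factors fell into widely and sparsely detected genes. Klf3, Klf4, Klf5, Grhl2 and Elf3 had at least 1 count in 90 to 96 of 96 cells, and Grhl1, Grhl3, Ovol1, Ehf and Zfp750 in 28 to 51. At 10 counts the first 4 were still in 95 or 96 cells and Elf3 in 76, whereas the sparse genes were in 19 to 36.

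**Figure D1:**
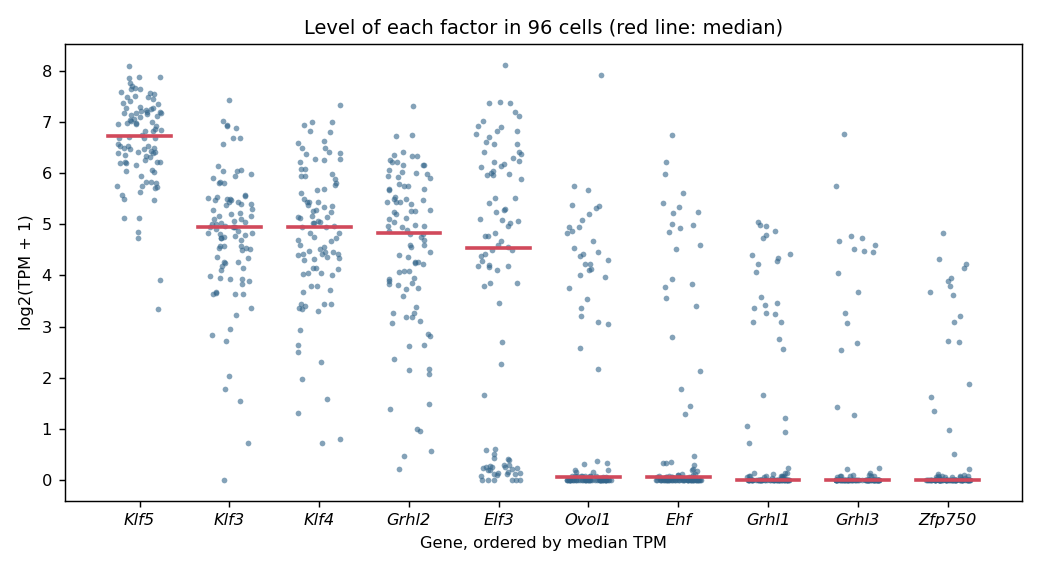
Level of each of the 10 factors in 96 cells, as log2(TPM + 1) on the vertical axis, with genes on the horizontal axis ordered by median TPM. Each point is a cell and each red line the median. Klf5 lies above the others, Elf3 has separate high and low cells, and the 5 genes at the right have most cells at or near 0.

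Among the Krüppel-like factors, Klf5 was the most abundant (chromosome 14, 99298691 to 99315036, plus strand). Its TPM was 9.16 in the lowest cell, 105 at the median and 272 in the highest, and no cell was without it. Klf3 (chromosome 5, 64803388 to 64832901, plus strand) ran from 0 in 1 cell through a median of 29.8 TPM to 172. Klf4 (chromosome 4, 55527143 to 55532466, minus strand) had the same median of 29.8 TPM, from 0.659 to 160. Klf5 exceeded Klf3 in 93 cells, while Klf3 exceeded Klf4 in 47 cells and fell below it in 49, so Klf3 and Klf4 do not part beyond their spread. These genes had coefficients of variation in TPM of 0.49 (Klf5), 0.84 (Klf3) and 0.85 (Klf4), all below the median of 1.07 over the 14463 genes tested. A gene was tested where at least 10% of cells reached 10 counts, and all 10 factors passed.

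The grainyhead-like factors differed in how many cells held them. Grhl2 (chromosome 15, 37233036 to 37363569, plus strand) had counts in every cell, with 0.162 TPM in the lowest, 27.6 at the median and 157 in the highest. It was lower than Klf4 in 50 cells and higher than Elf3, the next in the order, in 55, so neither neighbour is set apart from it. Grhl1 (chromosome 12, 24572283 to 24617391, plus strand) had 10 or more counts in 28 cells, or 29.2% (exact 95% interval 20.3% to 39.3%), a median of 0 and a highest TPM of 32.2. Grhl3 (chromosome 4, 135541888 to 135573630, minus strand) reached 10 counts in 19 cells, or 19.8% (12.4% to 29.2%), had a median of 0, and its highest value, 107 TPM, came from cell 1 of pair 8. The intervals cover counting error only, and the cells are not independent, since each has a sister among them. Where Grhl1 or Grhl3 did reach 10 counts, its median count was 777.5 or 832.0, far above the 10 counts asked for. Counts are of amplified RNA, and how many captured molecules they stand for is not known. A cell without counts may therefore still have held the transcript.

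Ovol1 (chromosome 19, 5549136 to 5560646, minus strand) was the most often found of the sparse genes, with 10 or more counts in 36 cells, or 37.5% (27.8% to 48.0%). Its TPM was 0 in the lowest cell, 0.049 at the median and 239 in the highest, again cell 1 of pair 8. Without that cell the next count was 3431 against 14390.

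The ETS factors were unlike each other. Elf3 (chromosome 1, 135253575 to 135258568, minus strand) ran from 0 through 22.1 TPM at the median to 276 TPM, the highest value of any of the 10 factors, and 31 cells lay below 1 TPM. Its quartiles, 0.232 and 68.6 TPM, show how far these cells stood from the rest. Ehf (chromosome 2, 103263433 to 103303278, minus strand) had 10 or more counts in 30 cells, or 31.3% (22.2% to 41.5%), a median of 0.036 TPM and a highest value of 106 TPM. A further 21 cells held 1 to 9 counts of Ehf. Elf3 exceeded Ovol1, the next in the order, in 76 cells, whereas Ovol1 exceeded Ehf in 38 and fell below it in 36. Elf3 also went with the number of genes detected in a cell (rho 0.31), and the part of detection in its level was not tested.

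Zfp750 (chromosome 11, 121510978 to 121519333, minus strand) was the lowest of the 10 by mean TPM, at 1.87. It reached 10 counts in 19 cells, or 19.8% (12.4% to 29.2%), and 27.2 TPM in the highest. In the order from Ehf through Grhl1 and Grhl3 to Zfp750, each gene exceeded the next in 27 to 39 cells and was exceeded by it in 24 to 29. The gene lies within Tbcd, on the other strand, which had a median of 24.8 TPM, and the strand of counting is not stated, so that reads of the overlapping parts cannot be told apart. Its rho with Tbcd over cells was 0.17. Grhl2 overlaps Gm16136 (median 7.22 TPM, rho 0.00), and the genes that overlap Klf3, Ovol1 and Elf3 had medians of 0 TPM.

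ERCC transcripts of like mean TPM showed how often RNA added alike to each lysate was seen. The 5 nearest to Grhl1 and Grhl3 reached 10 counts in 6 to 50 cells, those nearest to Ovol1 in 25 to 69, those nearest to Ehf in 18 to 77 and those nearest to Zfp750 in 4 to 29. The sparse genes, at 28, 19, 36, 30 and 19 cells, lay inside these ranges. For Klf3, Klf4, Grhl2 and Elf3 the nearest ERCC transcripts reached 10 counts in 57 to 89 cells. Klf3, Klf4 and Grhl2, at 95 to 96 cells, were above that range, and Elf3, at 76, was within it.

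Of the 5 sparse genes, 20 cells had none at 10 counts, 42 had 1, 21 had 2, 7 had 3, 3 had 4 and 3 had all 5. The cells with all 5 were cell 1 of pair 8, cell 1 of pair 12 and cell 1 of pair 15, and their sisters had 1, 1 and 3 of the 5. In cell 1 of pair 8 the counts were 14390 for Ovol1, 6415 for Grhl3, 776 for Zfp750, 627 for Grhl1 and 323 for Ehf, whereas its sister had 464 for Ovol1 and 0 for Grhl3, Zfp750, Grhl1 and Ehf. These cells were named after their values were seen.

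Sisters were next compared. A pair was called apart for a gene where the higher sister had at least 1.5 times the spike-in scaled count of the lower, with a pseudocount of 1. Over all 14463 genes tested, 65.2% of the gene and pair combinations were apart, and the median gene was apart in 33 of 48 pairs (quartiles 25 and 38). The 10 factors were apart in a median of 32 pairs, from 21 for Grhl3 to 40 for Elf3.

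Klf5 sisters were the closest of the widely detected genes. They were apart in 25 pairs, or 52.1% (exact 95% interval 37.2% to 66.7%), with a median fold of 1.53 on this scale, and the widest pair had 6906 and 743 scaled counts. Klf3 was apart in 31 pairs with a median fold of 1.79, Klf4 in 34 with 2.24 and Grhl2 in 33 with 2.28. In pair 42 Grhl2 stood at 5434 scaled counts in one sister and 34.1 in the other. Elf3 was apart in 40 pairs, or 83.3% (69.8% to 92.5%), and 82.5% of all genes were apart in fewer pairs. Both Elf3 sisters reached 10 counts in 30 pairs, only 1 sister in 16 and neither in 2, and the extreme, pair 29, had 3519 scaled counts against 0. The 5 ERCC transcripts nearest in median TPM were apart in 32 to 40 pairs for Klf3, Klf4, Grhl2 and Elf3, and in 10 to 34 for Klf5. None of these 5 factors was apart in more pairs than the highest of its nearest spike-ins, which were added to every lysate alike.

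For the sparse genes the question was whether a cell with the transcript had a sister with it. Among the 30 cells with 10 or more counts of Ehf, 16 had a sister that also had them, or 53.3%, against 31.3% of all cells. For Ovol1 it was 18 of 36 cells, against 37.5% of all cells. For Grhl1 it was 10 of 28 (35.7% against 29.2%), for Grhl3 6 of 19 (31.6% against 19.8%) and for Zfp750 6 of 19 (31.6% against 19.8%). For all 5 genes the share among sisters was above that among all cells, by the widest margin for Ehf. All cells here include those of other sets, and no share among cells of the same set was taken. Zfp750, for one, reached 10 counts in 5 cells of set 6 and in 0 cells of sets 7 and 11. For Grhl3 and Zfp750 the share among sisters rests on 3 pairs each. No such share is given for all genes tested. By the distance between sisters, described below, 70.2% of all genes tested had sisters closer than cells of different pairs. Of the pairs with a sister at 10 counts, most had only 1 such sister: 18 of 23 pairs for Grhl1, 13 of 16 for Grhl3, 18 of 27 for Ovol1, 14 of 22 for Ehf and 13 of 16 for Zfp750.

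Ehf gave clear cases of each kind. Pair 15 had 6319 and 3735 counts, and pair 27 had 4305 and 1160. Pair 3 had 11773 counts in one sister and 4 in the other, and pair 22 had 3484 and 0.

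**Figure D2:**
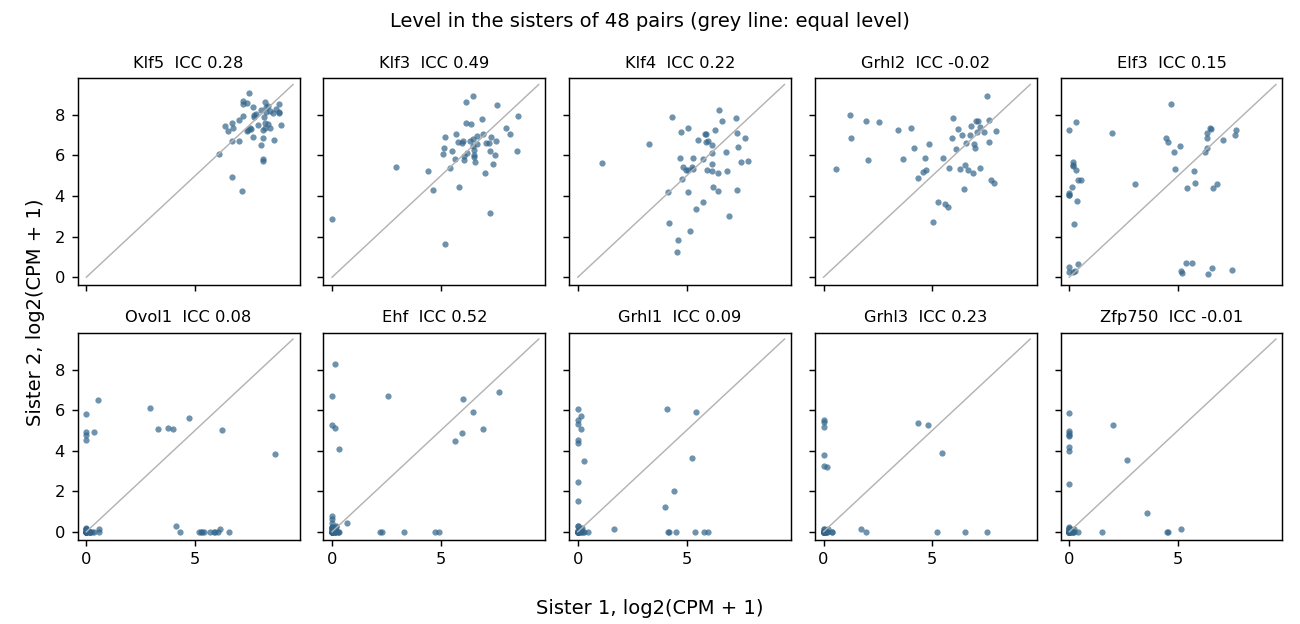
Level of each factor in sister 1 (horizontal axis) and sister 2 (vertical axis) of 48 pairs, both as log2(CPM + 1). Sister numbers are arbitrary, each point is a pair, the grey line marks equal level and ICC is the intraclass correlation. Most Klf5 and Klf3 pairs are high in both sisters, Elf3 has pairs near both axes as well as at high level in both sisters, and most points of the sparse genes lie on an axis or at the origin.

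The intraclass correlation (ICC) of log2(CPM + 1), the share of a gene's spread that lies between pairs, was used to rank the factors by how alike sisters were. It is below 0 where sisters differ more than cells of different pairs. Ehf had 0.52 and Klf3 0.49, above 96.4% and 95.1% of the genes tested. Klf5 had 0.28, Grhl3 0.23, Klf4 0.22 and Elf3 0.15. Grhl1 had 0.09, Ovol1 0.08, Zfp750 -0.01 and Grhl2 -0.02. Grhl2 was thus at the percentile 23.9 of all genes although every cell had counts of it. The median was 0.18 over the factors and 0.11 over all genes (quartiles -0.01 and 0.25). For the 5 ERCC transcripts of nearest mean TPM the ICC was -0.16 to 0.05 near Ehf, -0.15 to 0.10 near Klf3, Klf4 and Elf3, -0.12 to 0.02 near Grhl1 and Grhl3 and -0.24 to 0.16 near Ovol1. It was 0.03 to 0.27 near Klf5, -0.15 to 0.27 near Grhl2 and -0.14 to 0.34 near Zfp750. The values of the spike-ins were taken on spike-in scaled counts, not on CPM. On that scale Klf5 had 0.36, Ovol1 0.10, Grhl2 0.02 and Zfp750 -0.01. Klf5 thus lay above the highest of its spike-ins, and Ovol1, Grhl2 and Zfp750 lay inside the range of theirs.

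The distance between sisters was also set beside that between cells of different pairs, of which there are 4512 combinations, as the median absolute log2 ratio of spike-in scaled counts. It was smaller between sisters for 9 of the 10 factors, and for 70.2% of all genes tested. For Grhl3, with most cells at 0, this rests on 0.00 against 0.06. Klf5 had 0.61 between sisters and 0.86 between other cells, Klf3 0.84 and 1.10, and Ehf 2.11 and 3.02. Elf3 was the exception, with 3.35 between sisters and 3.25 between other cells. Grhl2, in spite of its ICC near 0, had 1.19 and 1.51, and its ICC over ranked cells was 0.12. In the 288 combinations of different pairs within a set the values were 0.90 for Klf5, 1.10 for Klf3, 3.20 for Ehf, 1.56 for Grhl2, 1.52 for Klf4, 2.46 for Grhl1, 4.02 for Ovol1 and 2.07 for Zfp750. Elf3 then had 3.42, above the value between sisters, and Grhl3 had 0.00, the same as between sisters. Within sets 66.5% of all genes were closer between sisters.

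The value for Klf3 leaned on the sets of 8 cells. Centred within sets it was 0.26, where the median ICC over all genes tested moved from 0.11 to -0.04. Without set 1 the Klf3 value was 0.29. In that set the median Klf3 level was 7.24 TPM, against 17.2 to 79.1 in the other sets. Ehf kept 0.45 centred within sets and lay between 0.45 and 0.60 with each set left out, but fell to 0.28 when cells were ranked. The lower values also moved with single sets. Grhl3 had 0.13 without set 4, 0.15 without set 7 and 0.36 without set 2. Elf3 had 0.09 without set 10 or set 11 and 0.23 without set 9, and 0.02 centred within sets. Grhl1 had 0.00 without set 11 and 0.19 without set 4. Centred within sets, Grhl3 had 0.15, Ovol1 -0.01, Grhl1 -0.05 and Zfp750 -0.18. Klf3 and Ehf also went with library size: their rho with the counts on genes was -0.36 for Klf3 and -0.33 for Ehf, and -0.24 and -0.28 centred within sets. The part of library size in these values was not tested.

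**Figure D3:**
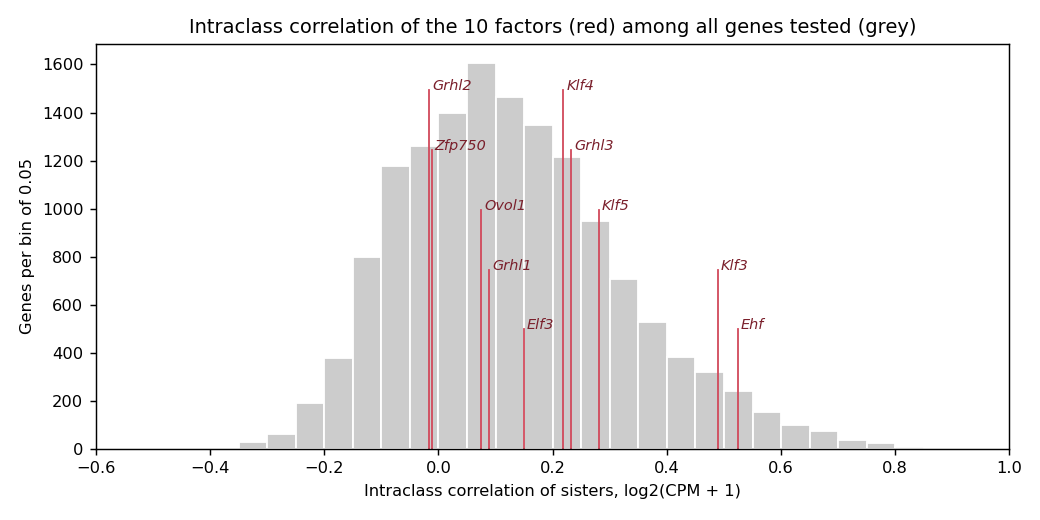
Intraclass correlation of sisters for the 10 factors (red lines, horizontal axis) over the histogram of 14463 genes tested (grey, genes per bin of 0.05 on the vertical axis), from log2(CPM + 1). Ehf and Klf3 stand in the upper tail, and Grhl2 and Zfp750 near 0.

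The gene lists were set beside the factors, whose median ICC was 0.18. It was 0.40 over 25 cornified and spinous genes, 0.32 over 18 basal genes, 0.33 over 4 wound keratins, 0.56 over 20 cell cycle genes and 0.17 over 31 other regulators of differentiation. The cornified list had 35 genes, of which 10 did not pass the filter, among them the suprabasal keratin gene Krt1 and Flg, Tgm3 and Cdsn of the mature cornified layer. Flg had a count in 5 cells and reached 10 in none. Of the 35 genes, 11 reached 10 counts in at least 90% of cells and 18 in fewer than 48 cells. Periplakin (Ppl), which ties keratin filaments to the envelope, had a median of 24.4 TPM and S100a14 of 138 TPM. The highest medians of the list were 925 TPM for Cstb, 715 for Sprr2a2 and 469 for Plin2. The spinous keratin gene Krt10 had 4.10 TPM, and the envelope precursor Ivl and the crosslinking enzyme Tgm1 had 0.854 and 0.680, while Krtdap, Lor and Sprr3 had medians of 0.

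Among 34 other regulators of epidermal differentiation, 31 passed the filter, 16 reached 10 counts in at least 90% of cells, and 10 did so in fewer than 48 cells. Further Krüppel-like genes were among the widely detected ones: Klf6 had a median of 105 TPM, Klf13 52.1 and Klf9 17.7, against 105 for Klf5. The oxidative stress factor Nfe2l2, at a median of 135 TPM, was the highest of the list. Klf2, Elf5, Tfap2c and Hopx had medians of 0, and Tfap2b had counts in 0 of 96 cells. For counting error alone, with cells taken as independent, this limits the share of cells with a count to 3.12%, and it sets no limit on cells that express the gene. The ICC of the list ran from -0.32 for the AP-1 subunit gene Fosl2 to 0.56 for the homeobox gene Barx2. Of the close relatives of the factors, Ovol2 was found at 10 counts in 42 cells with an ICC of 0.00, and Elf5 in 12 cells with 0.49.

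The 10 factors went together weakly across cells. Spearman's rho was positive for 40 of the 45 gene pairs, with a median of 0.13, against 0.00 over 144620 combinations of a factor with a gene tested (5th and 95th percentile -0.19 and 0.19). The genes of a cell share its library and depth, and the cells of a pair share a mother cell. Only Klf3 with Ehf reached 0.4 in size, at 0.43, a level met by 0.0857% of the combinations of a factor with any gene tested. It had 0.38 centred within sets and 0.34 under spike-in scaling. On that scale Klf3 with Klf5 (0.48) and Klf4 with Klf5 (0.47) passed 0.4 instead, as did 0.289% of the combinations. Klf4 with Klf5 had 0.38, Klf3 with Klf5 0.37, Klf3 with Grhl1 0.30 and Klf4 with Grhl3 0.28. The lowest were Klf4 with Zfp750 at -0.09 and Klf4 with Grhl2 at -0.04. The grainyhead-like genes had 0.20 for Grhl2 with Grhl3, 0.09 for Grhl1 with Grhl3 and 0.06 for Grhl1 with Grhl2, and the ETS genes Elf3 and Ehf had 0.11.

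Within pairs the order was another. Over the differences between sisters the median rho was 0.09 and 34 of 45 were positive. Klf3 with Ehf had 0.12 there, against 0.50 over the means of pairs, and Klf4 with Klf5 had 0.18 against 0.50. The highest over sister differences were Grhl1 with Zfp750 at 0.29, Klf4 with Grhl3 at 0.24 and Klf4 with Ovol1 at 0.22. The rho of Klf3 with Ehf was thus carried by the level of the pair and hardly by the difference within it, over 48 pairs and with sparse counts of Ehf.

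**Figure D4:**
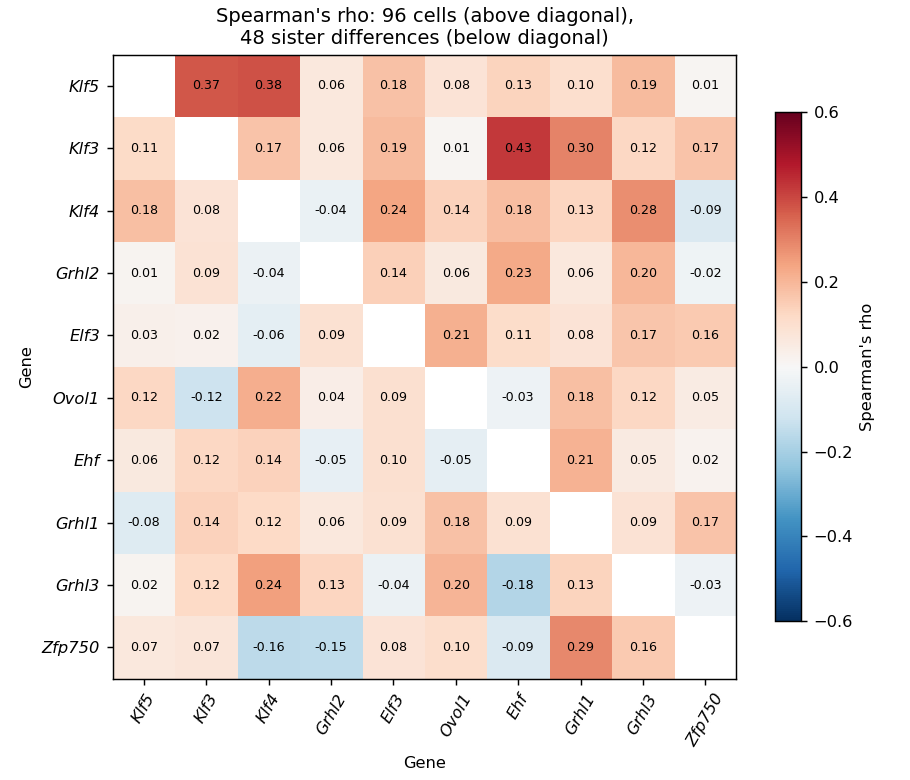
Spearman's rho between the 10 factors, on a colour scale from -0.6 to 0.6, with genes on both axes ordered by median TPM. Values over 96 cells stand above the diagonal and values over 48 sister differences below it. Klf3 with Ehf is 0.43 above and 0.12 below the diagonal.

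Each factor was set beside gene lists scored as the mean of standardized log2(CPM + 1). With the score of the other regulators, Klf5 had a rho of 0.49, Elf3 0.39, Klf4 0.34, Klf3 0.31 and Ehf 0.23, and the sparse Ovol1, Grhl3, Grhl1 and Zfp750 lay between -0.04 and 0.13. Grhl2, found in every cell, had 0.02. Klf5 was the only factor at 0.4 or more in size, as were 0.104% of all genes tested, list genes included. For Klf5 it was 0.47 centred within sets and 0.25 over sister differences. The list genes nearest to Klf5 were the clock repressor gene Bhlhe40 and Nfe2l2, both at 0.34, and Trp63, which encodes p63, at 0.32 across cells and 0.47 over sister differences.

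With the cornified and spinous score no factor reached 0.4 in size, which 0.726% of all genes did. Klf4 was the highest at 0.30, with S100a14 (0.31) its nearest list gene, followed by Elf3 at 0.23 and Klf5 at 0.20. Grhl2 was the lowest at -0.19. Grhl1, Grhl3, Ovol1 and Zfp750 had 0.05 to 0.10, and Klf3 and Ehf 0.06 and 0.01. Over sister differences Grhl1 had the highest value, 0.37. Loricrin (Lor) was the list gene nearest to Elf3, at 0.29 across cells and 0.08 over sister differences. The list genes nearest to Ovol1 were Trp63 of the basal list (0.28), periplakin (0.27) and Itgb4 of the basal list (0.24). Its lowest list gene was the spinous keratin gene Krt10, at -0.19.

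Under spike-in scaling most of these values, and those of all genes, were higher. The median rho of all genes tested with the cornified score moved from 0.01 to 0.19, and that with the regulator score from 0.01 to 0.20. Klf4 and Klf5 then both had 0.46 with the cornified score, where 8.19% of all genes were at 0.4 or more in size. With the regulator score Klf5 had 0.65, Klf3 0.52, Elf3 0.50 and Klf4 0.46, where 8.61% of all genes were past 0.4 in size. Not every factor was higher: Ehf moved from 0.23 to 0.12 with the regulator score and from 0.01 to -0.02 with the cornified score, and Grhl3 had 0.10 with the regulator score on both scales. The RNA content of the cells, from counts scaled to the spike-ins, ranged 5.81-fold and is shared by all genes on this scale.

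With the basal score all 10 factors lay between -0.07 and 0.14, none at 0.4 in size, as were 0.539% of all genes. With the wound keratins Krt6a, Krt6b, Krt16 and Krt17 they lay between -0.13 for Ehf and 0.19 for Elf3, and again none passed 0.4 in size, as 0.844% of all genes did. With the cell cycle score none passed 0.4 either, which 2.04% of all genes did. Klf3 and Grhl1 both had -0.28 there, at percentiles 0.76 and 0.71 of all genes, Klf4 had -0.18, and Grhl2 had 0.24. Under spike-in scaling Klf3 had -0.04 and Klf4 -0.0045 with the cell cycle score, while Grhl1 had -0.25 and Grhl2 0.32. The median of all genes tested moved from 0.03 to 0.15 on that scale. The lowest list genes for Klf3 were all of this list, Cdk1 at -0.32, Aurkb at -0.31 and Birc5 at -0.30, and the 3 highest for Grhl2 were of it too, Aurkb at 0.34, Top2a at 0.30 and Cenpe at 0.27. Over sister differences Klf3 had -0.07, Grhl1 -0.14 and Grhl2 0.13 with the score, and Zfp750, at -0.29, was the lowest.

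**Figure D5:**
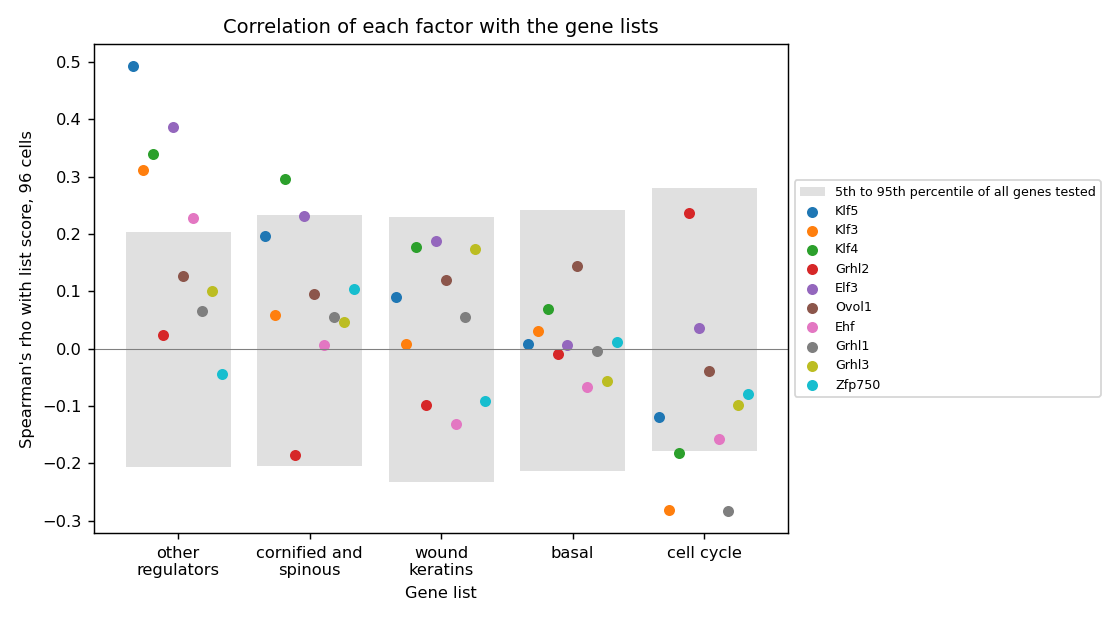
Spearman's rho of each factor with the score of 5 gene lists over 96 cells (vertical axis), by list (horizontal axis). Each coloured point is a factor and each grey band spans the 5th to the 95th percentile of 14463 genes tested. Klf5, Elf3, Klf4, Klf3 and Ehf lie above the band of the other regulators, and Klf3, Klf4 and Grhl1 below that of the cell cycle genes.

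For each factor the 3 genes with the highest rho across cells outside the 10 were listed, over 96 cells and 14463 genes. Klf3 had Mxd4 (0.52), which encodes a partner of Max, then G6pdx (0.48), the first enzyme of the pentose phosphate pathway, and Chfr (0.47), a mitotic checkpoint gene. Klf5 had Tsc22d1 (0.52), Marchf2 (0.40) and Slc7a11 (0.40), the cystine transporter, and Klf4 had Krt42 (0.41), Itpkc (0.38) and Zyg11b (0.37). G6pdx was also among the 3 of Grhl3 (0.42), with Vcp-rs (0.42) and Prss8 (0.39), a membrane protease of epithelial barriers. Grhl2 had Clock (0.40), Fgfr1 (0.40) and Slc16a7 (0.38), and Grhl1 had Hacl1 (0.43), the defensin gene Defb1 (0.43) and 4931422A03Rik (0.38).

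The remaining factors had neighbours of like strength. Ehf had the keratin gene Krt23 (0.52), the mitochondrial carrier gene Ucp2 (0.49) and Selenbp2 (0.48), of which Krt23 and Ucp2 had 0.03 and 0.04 over sister differences and Selenbp2 0.47. Elf3 had Ampd3 (0.43), Hr (0.42) and Nupr1 (0.41), Ovol1 had Dcaf10 (0.43), Arhgef4 (0.40) and Prkcz2 (0.39), and Zfp750 had Trp53inp1 (0.51), Abhd4 (0.49) and the antiproliferative gene Btg2 (0.46). Trp53inp1 kept 0.46 with Zfp750 over sister differences. The neighbours were picked as the highest of 14463 values for each factor, so their size follows from that choice. Vcp-rs and Selenbp2 have near-identical copies in the genome, and how reads were split between copies is not stated.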

How the data were processed

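The authors trimmed reads with Trimmomatic 0.39, aligned them with STAR 2.7.11a to GRCm38 and quantified genes with StringTie 2.2.1. They deposited a table of estimated counts per gene and cell, whole numbers without normalization, and per-cell tables of TPM and coverage signal, with ERCC transcripts included. Coverage was used only for the bases behind a count. The libraries held 29454150 to 44849003 counts on genes. Genes of few counts are measured with less precision. At these depths the 5 spike-ins nearest to Klf4 in mean TPM still reached 10 counts in only 57 to 89 cells.

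Calculations used Python 3.11.15, numpy 2.4.6, scipy 1.17.1, pandas 2.3.3 and matplotlib 3.10.9. Size factors were medians of ratios over the 22 of 92 ERCC transcripts counted in all cells. Genes were tested where at least 10% of cells reached 10 counts (14463 genes). Ratios used a pseudocount of 1, and shares have exact Clopper-Pearson 95% intervals. The 96 cells are 1 group, so no test was run. Scripts were tested on simulated data. Alternatives covered scaling, pseudocounts, cutoffs, filters and sets of cells.

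The 10 genes, the gene lists and the rules were chosen with earlier results of these data known. Named were all 10 factors, genes of the lists, the list genes with the 3 highest and 3 lowest rho for a factor, and the 3 nearest genes per factor. The ERCC transcripts nearest in mean TPM and their intraclass correlations, the correlations with library size, and the share of all genes closer between sisters, were added after values were seen. Promoters came from RefSeq.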

Additional observations from a re-analysis of the deposited data

How the results depend on the processing

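Pairs apart had a median of 32, and 25.5 to 31.5 under other scalings, a 2-fold cutoff, a pseudocount of 10 or without pairs under 10 counts. The median ICC of 0.18 became 0.08 centred within sets and 0.13 to 0.22 with each set left out. Over all genes tested, centring within sets moved the median ICC from 0.11 to -0.04. The median rho among the factors was 0.12 to 0.15 with each set left out. With the lists, leaving out a set gave medians of 0.15 to 0.23 for the other regulators, 0.02 to 0.10 for the cornified genes, -0.02 to 0.05 for the basal genes, 0.05 to 0.09 for the wound keratins and -0.16 to -0.05 for the cell cycle genes. Over sister differences the regulator median of 0.18 became 0.06. Under spike-in scaling the cornified median of 0.08 became 0.15, and the cell cycle median of -0.11 became -0.02. On that scale the medians of all genes tested moved from 0.01 to 0.19 and from 0.03 to 0.15. By Pearson's r on log2(CPM + 1) the cornified median was 0.17. The basal median of 0.01 moved to 0.18 under spike-in scaling, where the median of all genes moved by 0.19, and to -0.0903 centred within sets, and the wound keratin median of 0.07 moved to -0.0592 centred within sets. The cause was not tested.

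Single genes changed more: Ehf was apart in 33 pairs but in 17 on CPM, 15 on TPM and 19 without pairs under 10 counts, Grhl3 in 21 but in 13 on CPM and on TPM, Zfp750 in 25 but in 15 on both, and Klf5 in 11 at 2-fold. By mean instead of median TPM, Elf3 had rank 2 and Klf3 rank 4. Of the 30 nearest genes 16 were the same under spike-in scaling and 23 with genes in at least 50% of cells only.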
